A study of Drosophila melanogaster and Drosophila simulans with 122 samples.

Results

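The 10 genes described here encode proteins of the centriole, the material around it and the basal body: SAK, ana2, Sas-6, Sas-4, ana1, asl, Poc1, cnn, Plp and unc. They were listed by symbol and not by a cutoff on a measured value, though earlier results of these data were known. Of these, 10 of 10 were found among the 17612 genes of the D. mel count tables. RNA was sequenced from whole testes and from single spermatogenic cysts of Drosophila melanogaster in a study of miR-983, a testis microRNA, and its effect on expression in the male germ line. The lines were wild type (D. mel WT), a knockout made in the w1118 strain by CRISPR deletion of both mir-983 copies (D. mel KO), and a replacement line with a D. simulans mir-983 copy in their place. In both edited lines a marker had been removed with cre and the flies balanced with FM7a, and each genotype was represented by 1 line. Cysts came from mated males at 2 to 3 days after eclosion and testes from males at 3 to 5 days, with 20 to 25 pairs of testes in each pool.

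The cysts were staged under the microscope as spermatogonia (SG), late primary spermatocytes (pSC), round spermatids (rST) and elongating spermatids (eST). SG cysts were cysts of 16 cells under 10 µm in diameter, and pSC cysts had 16 cells of 22 to 25 µm. D. mel WT had 6 SG cysts and 5 of each other stage, D. mel KO had 4 SG, 5 pSC, 6 rST and 6 eST cysts, and the replacement line had 5 of each stage. Each line also had 3 testis libraries. Every cyst was 1 library and the labels do not say which cysts came from the same fly, so p-values measure the spread between these libraries. The testis libraries held 15478484 to 21368301 counted reads and the cysts 14870386 to 24086166. The 4 spermatogonial markers aub, vas, bam and nanos fell from SG to pSC in all 3 lines (4 of 4 in each). SG cysts also held RNA of 5 spermatocyte markers. Their summed level was 273 to 432 FPKM in D. mel WT, 205 to 345 in D. mel KO and 17.1 to 481 in the replacement line, against 483 to 763 in the pSC cysts of D. mel WT. Whether the staged cells themselves made this RNA was not tested. The deleted genes could not check the labels, since mir-983-1 was listed above 0 FPKM in 2 and mir-983-2 in 3 of 71 libraries.

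Centrioles are cylinders of microtubules that organise the centrosome and, docked at a membrane, act as the basal body of a cilium or flagellum. A new centriole forms beside an old one: the kinase SAK starts the process, ana2 and Sas-6 build the cartwheel, Sas-4 adds the microtubule wall, and ana1, asl and Poc1 act as the centriole matures and elongates. The proteins cnn and Plp organise the pericentriolar material. In fly spermatocytes the centrioles grow unusually long and carry short cilia, and each spermatid inherits a centriole that becomes the basal body of the sperm tail.

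In the BDGP6 annotation all 10 are protein-coding genes, spread over 3R, 3L, 2R and X. On 3R lie Sas-4 (FBgn0011020) at 7151367 to 7154219 on the plus strand, asl (FBgn0261004) at 5603236 to 5606543 on the minus strand, ana1 (FBgn0262167) at 24530576 to 24536395 on the plus strand and Sas-6 (FBgn0039731) at 29995357 to 29997034 on the plus strand. On 3L lie Poc1 (FBgn0036354) at 13388299 to 13390006 on the minus strand, Plp (FBgn0086690) at 15066081 to 15094724 on the minus strand and SAK (FBgn0026371) at 21512141 to 21515887 on the minus strand. On 2R are ana2 (FBgn0027513) at 8898729 to 8900211 on the minus strand and cnn (FBgn0013765) at 13439314 to 13450475 on the minus strand, and X carries unc (FBgn0003950) at 21111414 to 21116914 on the minus strand. Levels are summed over all exons of a gene. Apart from SAK, at most 4.91% of the exon bases of any of the 10 overlap another gene.

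Levels are given as FPKM (read fragments scaled by transcript length and by the mapped fragments of the library), which can be set side by side between genes. Changes are log2 fold changes of TMM-scaled read counts, each with its standard error (SE), and a gene passed at a false discovery rate (FDR) under 0.05 over all genes tested by edgeR. These scales differ between stages. From rST to eST in D. mel WT, the median change over 13253 genes was 0.10 on the log2 scale of TMM counts and -0.48 for log2(FPKM + 0.1), so a gene could be listed at a similar FPKM in both stages and have risen in TMM counts. Scaling by DESeq2 size factors moved the median of all genes by up to 0.33, from pSC to rST in the replacement line. In a bulk library, fewer cells of a type and less RNA per cell cannot be told apart. Many genes changed between stages (48.4% of all genes passed from SG to pSC in D. mel KO). Where groups are said not to overlap without a share of all genes, this describes the libraries and is not particular to these genes.

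The 10 genes covered very different levels. The most abundant in every stage of D. mel WT was cnn, from 126 ± 30.2 FPKM (SD, n = 6) in SG to 381 ± 219 (n = 5) in eST, above 90.2% and 97.1% of 13935 protein-coding genes. The least abundant was Plp, at 0.529 ± 0.328 FPKM in SG and 0.136 ± 0.158 in eST, above 24.6% and 22.5% of them. Poc1 was second at each of these stages. The stage of the highest mean FPKM was SG for Sas-4, asl and Plp in all 3 lines, pSC for Sas-6, ana1, ana2 and Poc1, and rST for SAK, except that the mean of ana1 in the replacement line differed little between SG (7.04 FPKM) and pSC (7.26 FPKM). For cnn it was eST in D. mel WT and D. mel KO and rST in the replacement line. For unc it was SG in D. mel KO and the replacement line. In D. mel WT it was pSC for unc, with a mean close to that in SG (2.98 against 2.94 FPKM).

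**Figure D1:**
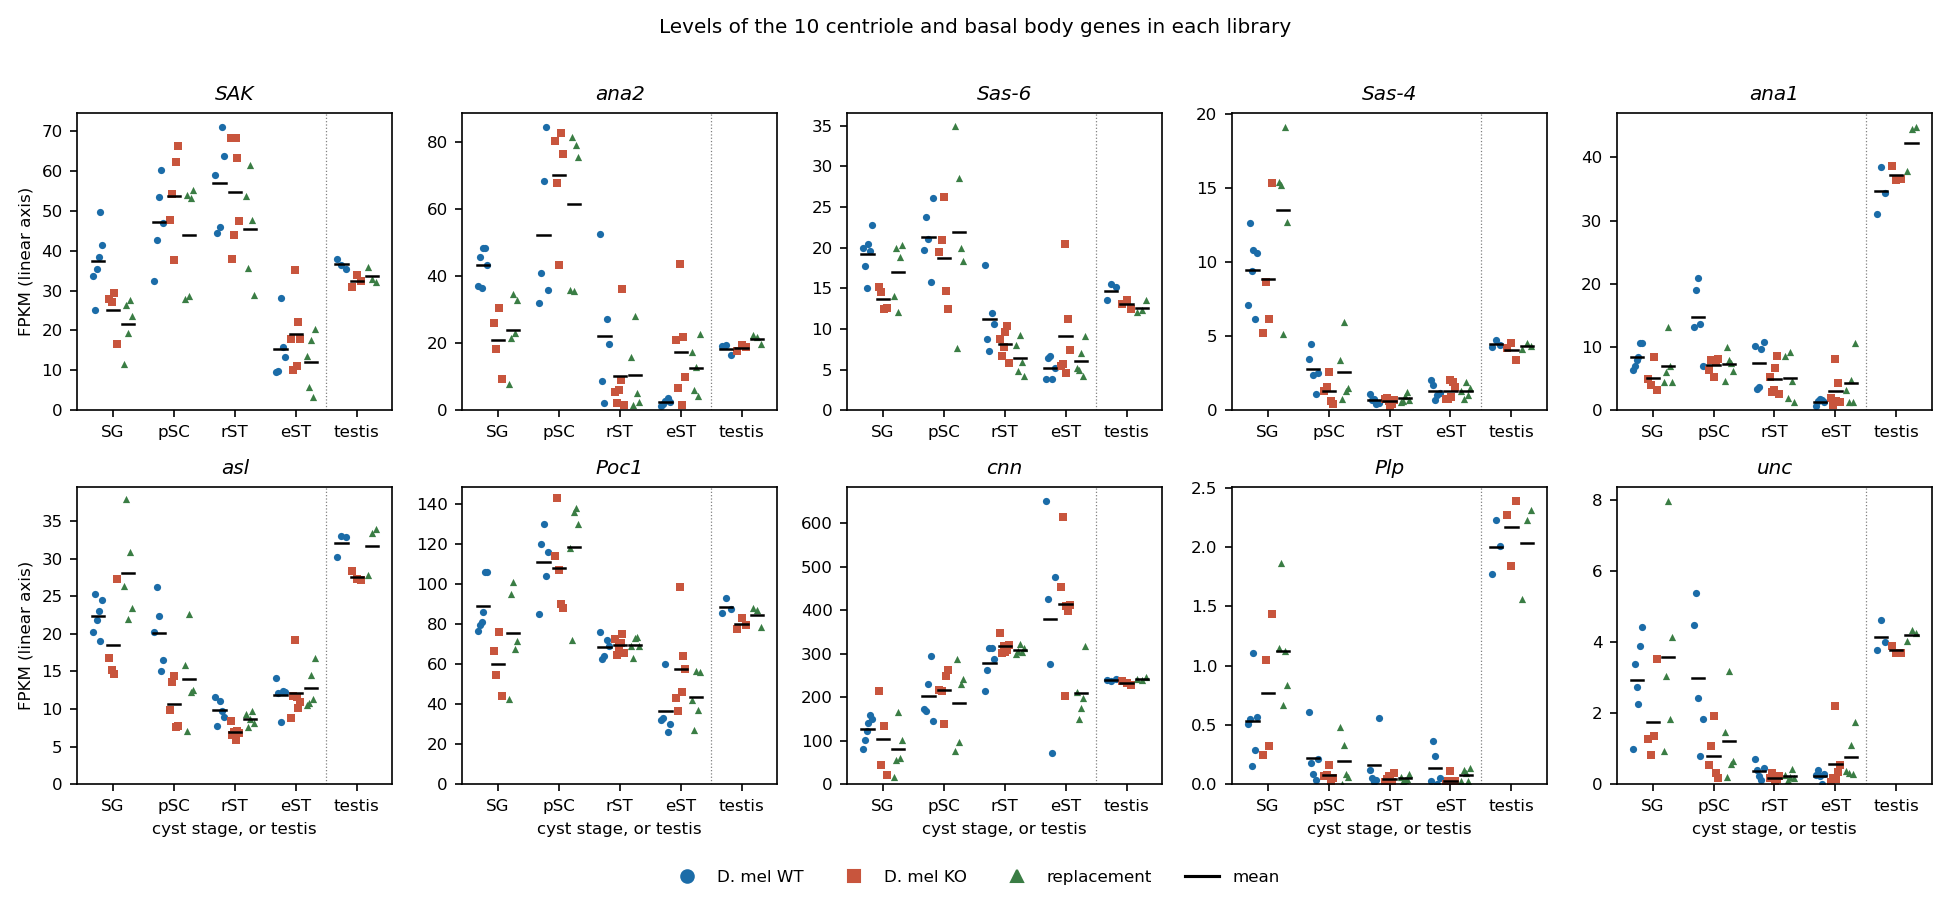
FPKM (vertical axis, linear, a separate scale for each gene) of the 10 genes in each library, by cyst stage and in testes (horizontal axis), with points for libraries, colours for lines and black bars for means. Sas-4 is highest in SG cysts, SAK drops after rST, and ana1 lies between 31.1 and 44.8 FPKM in testes against at most 20.9 in any cyst.

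SAK, the Polo-like kinase that starts centriole duplication, fell from round to elongating spermatids in all 3 lines. Its FPKM in D. mel WT was 59, 44.4, 46, 71.1 and 63.6 in the rST cysts and 9.57, 9.91, 28.2, 15.8 and 13.3 in the eST cysts. The replacement line had 53.6, 35.7, 61.4, 47.6 and 28.9 FPKM in rST and 13.6, 5.87, 17.5, 3.44 and 20.3 in eST. D. mel KO ranged from 37.8 to 68.2 FPKM (median 55.2, n = 6) in rST and from 10.1 to 35.2 (median 17.8, n = 6) in eST. No eST cyst reached the lowest rST cyst of its own line. The log2 fold change was -1.28 ± 0.281 in D. mel WT (FDR 0.00241), -1.59 ± 0.268 in D. mel KO (FDR 0.000561) and -1.72 ± 0.406 in the replacement line (FDR 0.00875). Its mean was highest in rST but close to that in pSC (54.7 against 53.6 FPKM in D. mel KO and 45.4 against 43.8 in the replacement line), and the step between them passed in no line (FDR 0.0623 in D. mel WT, 0.394 in D. mel KO and 0.375 in the replacement line). From SG to pSC, SAK rose in D. mel KO (1.48 ± 0.316, FDR 0.00096) and in the replacement line (1.38 ± 0.402, FDR 0.0119), and the value in D. mel WT was 0.47 ± 0.264 (FDR 0.188). The call in the replacement line was lost on the FPKM scale (FDR up to 0.0692). The gene shares 18.1% of its exon bases with M6 on the other strand, and without strand, reads from those bases cannot be assigned to 1 of the 2 genes.

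ana2, the cartwheel protein that SAK phosphorylates, was lowest in the elongating spermatids of D. mel WT. D. mel WT cysts had 31.9, 40.9, 68.5, 84.6 and 35.9 FPKM in pSC, then 52.7, 8.87, 2.16, 27.2 and 19.7 in rST, and 1.12, 1.88, 2.85, 3.76 and 2.6 in eST. The WT rST cysts were spread widely, and 1 of them lay within the range of the eST cysts. The drop from rST to eST passed in D. mel WT (-2.37 ± 0.52, FDR 0.00239), where the step from pSC to rST did not (-0.99 ± 0.494, FDR 0.143). In D. mel KO and the replacement line it was the step from pSC to rST that passed, at -2.46 ± 0.664 (FDR 0.0155) and -2.19 ± 0.631 (FDR 0.0165), although the test of the difference from the wild type at that step did not pass by edgeR (1.47 ± 0.88 and 1.25 ± 0.901, FDR 1 and 0.727). Their values from rST to eST were 0.64 ± 0.618 (FDR 0.479) and 0.59 ± 0.608 (FDR 0.517). Whether the change from rST to eST differed in D. mel WT from that in the knockout was tested in 1 fit over the 62 cysts and passed (-3.20 ± 0.886, FDR 0.0296), and the same test against the replacement line did not (-3.09 ± 0.923, FDR 0.0631). The first was lost without any of 8 of 22 cysts: WT rST replicate 1 (-2.71, FDR 0.164), WT eST replicates 1 and 2, KO rST replicates 1, 2 and 6, and KO eST replicates 1 and 3. It was also lost with DESeq2 size factors and on the FPKM scale (FDR up to 0.089).

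The earlier rise of ana2, from SG to pSC, passed in D. mel KO (2.1 ± 0.759, FDR 0.0283) and in the replacement line (1.72 ± 0.621, FDR 0.0325). The SG cysts had 26.2, 18.2, 30.6 and 9.22 FPKM in D. mel KO against 80.5, 67.8, 43.3, 82.9 and 76.6 in pSC. In the replacement line they had 7.97, 21.7, 34.8, 23 and 33 FPKM against 35.9, 81.7, 35.7, 79.2 and 75.5. SG and pSC cysts did not overlap in either line. WT SG cysts were already at 36.6 to 48.4 FPKM (median 44.5, n = 6), and the change there was 0.44 ± 0.467 (FDR 0.481). Both calls depended on single cysts, with an FDR of up to 0.0875 without 1 of KO SG replicates 2 and 4 or KO pSC replicates 4 and 5, and of up to 0.0913 without 1 of replacement SG replicates 1, 2 and 5 or replacement pSC replicates 2, 4 and 5. On the FPKM scale and with the replicate number added to the fit as a block, the replacement call was lost (FDR up to 0.0913). The KO call was lost for log2(FPKM + 0.1) (FDR 0.0549).

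Sas-6 forms the hub of the cartwheel. Its means in D. mel WT were 19.3 ± 2.64 FPKM in SG (n = 6), 21.3 ± 3.94 in pSC, 11.3 ± 4.1 in rST and 5.18 ± 1.34 in eST (n = 5 each). No WT step passed in TMM counts, with values of 0.22, -0.46 and -0.46 on the log2 scale in order of stage. It fell from pSC to rST in the replacement line (-1.13 ± 0.298, FDR 0.00929), where the cysts went from 35, 7.65, 28.6, 19.9 and 18.3 FPKM to 8.07, 4.88, 9.31, 5.89 and 4.16. Those groups overlapped through pSC replicate 2. The call was lost with DESeq2 size factors (FDR 0.0594). In D. mel KO it rose from SG to pSC (0.72 ± 0.27, FDR 0.0325) and fell from pSC to rST (-0.76 ± 0.24, FDR 0.0365). The rise was lost without any of 6 of 9 cysts (FDR up to 0.0795; SG replicates 2, 3 and 4, pSC replicates 1, 2 and 4), and the fall without any of 8 of 11 (FDR up to 0.0992; pSC replicates 1 to 4, rST replicates 1, 2, 3 and 6).

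Sas-4, which links the centriole wall to the pericentriolar material, was highest in SG cysts and fell from SG to pSC in each line. The WT SG cysts ranged from 6.12 to 12.6 FPKM (median 9.98, n = 6) and the pSC cysts had 3.47, 4.44, 2.37, 1.1 and 2.49, with no overlap. The log2 fold change was -1.76 ± 0.374 in D. mel WT (FDR 0.0014), -2.54 ± 0.403 in D. mel KO (FDR 4.6e-05) and -2.37 ± 0.448 in the replacement line (FDR 0.000512). It fell again from pSC to rST in D. mel WT (-1.51 ± 0.387, FDR 0.0106), to 1.08, 0.678, 0.761, 0.442 and 0.488 FPKM. The values at that step were -0.60 in D. mel KO (FDR 0.281) and -0.94 in the replacement line (FDR 0.143). From rST to eST Sas-4 rose in TMM counts in D. mel WT (1.66 ± 0.39, FDR 0.00377) and D. mel KO (1.07 ± 0.346, FDR 0.0301). It had 35 to 82 reads (median 45) in the WT rST cysts and 24 to 58 (median 45.5) in the KO rST cysts. Its changes among spermatids thus rest on few reads. The FPKM of the eST cysts overlapped the rST cysts, with 2.03, 1.69, 0.673, 1.03 and 1.14 in D. mel WT, and neither rise passed on the FPKM scale (FDR up to 0.217 and 0.213). The KO rise was also lost without any of eST replicates 5 and 6 or rST replicates 3, 4 and 5 (FDR up to 0.0751).

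ana1, which acts when a new centriole is converted into one that can organise a centrosome, was higher in every testis library than in any cyst. The testes had 31.1, 38.4 and 34.4 FPKM in D. mel WT, 38.6, 36.4 and 36.6 in D. mel KO and 37.8, 44.4 and 44.8 in the replacement line. Cyst cDNA was amplified from 1 cyst and testis RNA came from pools, so these levels are set side by side without a test. Among cysts, ana1 fell from rST to eST in D. mel WT (-1.77 ± 0.352, FDR 0.00124), from 10.2, 3.32, 3.64, 9.63 and 10.8 FPKM to 0.713, 1.45, 1.85, 1.59 and 1.29. These groups did not overlap. The corresponding values were -0.92 ± 0.401 in D. mel KO (FDR 0.0998) and -0.03 ± 0.516 in the replacement line (FDR 0.975). The difference in this change, wild type minus replacement, did not pass (-1.85 ± 0.647, FDR 0.124). Its rise from SG to pSC in D. mel WT (0.90 ± 0.325, FDR 0.0445) was lost without any of 7 of 11 cysts (FDR up to 0.159; SG replicates 1, 2, 4 and 5, pSC replicates 2, 3 and 4).

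asl, which recruits SAK to the centriole, rose in TMM counts from rST to eST in D. mel WT (0.97 ± 0.238, FDR 0.00487), D. mel KO (0.82 ± 0.199, FDR 0.00573) and the replacement line (0.87 ± 0.244, FDR 0.0213). In FPKM the WT cysts had 11.6, 7.78, 11.1, 9.75 and 8.91 in rST and 14.1, 12.2, 8.24, 12.4 and 12.3 in eST, which overlapped. The replacement cysts had 9.35, 7.56, 8.73, 9.79 and 8.14 FPKM in rST and 10.6, 10.8, 14.5, 11.3 and 16.8 in eST, without overlap. On the FPKM scale the rise did not pass in any line (FDR up to 0.417, 0.0581 and 0.345). The replacement call was also lost without rST replicate 2 or 3 (FDR up to 0.0505). From SG to pSC asl fell in the replacement line (-0.88 ± 0.243, FDR 0.00863, or 0.0505 with DESeq2 size factors). From pSC to rST in D. mel WT it did not pass in TMM counts (-0.54, FDR 0.0958). In FPKM those cysts were at 15 to 26.3 in pSC and 7.78 to 11.6 in rST.

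Poc1, a WD40 protein of the centriole wall, rose from SG to pSC in D. mel KO (1.12 ± 0.224, FDR 0.000543) and in the replacement line (0.85 ± 0.263, FDR 0.0157), the second not on the FPKM scale (FDR up to 0.0746). The KO cysts went from 66.7, 54.6, 76.1 and 44 FPKM to 114, 143, 107, 90.2 and 88, without overlap. In D. mel WT the SG cysts were at 76.8 to 106 FPKM (median 83.7, n = 6) and the change was 0.42 ± 0.197 (FDR 0.116). Its mean FPKM in D. mel WT then went from 111 ± 17.1 in pSC to 68.6 ± 5.58 in rST and 36.4 ± 13.6 in eST. The WT cysts ranged from 85.4 to 130 FPKM in pSC, 62.4 to 75.9 in rST and 26.3 to 60.2 in eST. TMM counts gave -0.24 and -0.28 on the log2 scale, neither of which passed, so whether Poc1 fell at these steps depends on the scale.

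cnn, the scaffold of the pericentriolar material, also has a testis isoform that sits on spermatid mitochondria, and the gene-level values add all of its 12 annotated transcripts. It rose from SG to pSC in D. mel KO (1.34 ± 0.495, FDR 0.0309) and in the replacement line (1.26 ± 0.45, FDR 0.0308). In D. mel WT cnn did not pass at this step (0.78, FDR 0.113). The KO SG cysts had 215, 43.3, 134 and 20.1 FPKM, and the replacement SG cysts had 17.3, 56, 166, 60.2 and 101. SG cysts of the same line differed among themselves by more than the mean change. The calls were lost without any of KO SG replicates 2 and 4 and KO pSC replicates 4 and 5 (FDR up to 0.0967), or of replacement SG replicates 2 and 5 and replacement pSC replicates 2, 4 and 5 (FDR up to 0.122). The eST cysts of D. mel WT were widely dispersed, at 652, 426, 277, 70.7 and 477 FPKM, and the difference from rST did not pass there (1.01 ± 0.384, FDR 0.053).

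Plp, the pericentrin-like protein, and unc, a protein of the basal body of spermatocytes and sensory neurons, were scarce. Read counts of Plp were 0 to 536 per library with 0 in 3 of 71, and those of unc 0 to 740 with 0 in 1 of 71, so changes among spermatids rest on few reads. The same holds for Plp in pSC, with 7 to 34 reads (median 15) in D. mel KO and 0 to 101 (median 13) in the replacement line. Plp fell from SG to pSC in D. mel KO (-3.03 ± 0.771, FDR 0.00377) and in the replacement line (-2.55 ± 0.776, FDR 0.0147). In D. mel WT Plp did not pass at this step (-1.20, FDR 0.297). Its FPKM in D. mel KO was 0.248, 1.05, 0.321 and 1.44 in SG and 0.0662, 0.0791, 0.162, 0.0232 and 0.0508 in pSC, without overlap. unc fell from pSC to rST in D. mel WT (-2.42 ± 0.626, FDR 0.0111), from 4.47, 5.37, 2.43, 0.778 and 1.84 FPKM to 0.699, 0.394, 0.222, 0.118 and 0.451, also without overlap. The summed level of 4 somatic cyst cell markers (tj, zfh1, eya and Six4) was 30.9, 29.6, 21.6, 9.21 and 14.7 FPKM in those pSC cysts and 11.1, 5.26, 4.78, 6.07 and 8.06 in those rST cysts, 2 of the 4 fell (median -1.56), and their part in the unc result was not tested. The unc values in the other lines were -1.55 ± 0.618 (FDR 0.0977) and -1.56 ± 0.605 (FDR 0.0759). A fall of unc from SG to pSC in the replacement line (-1.51 ± 0.596, FDR 0.0469) was lost without any of 7 of 10 cysts (FDR up to 0.148; SG replicates 2, 4 and 6, pSC replicates 1, 2, 4 and 5).

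**Figure D2:**
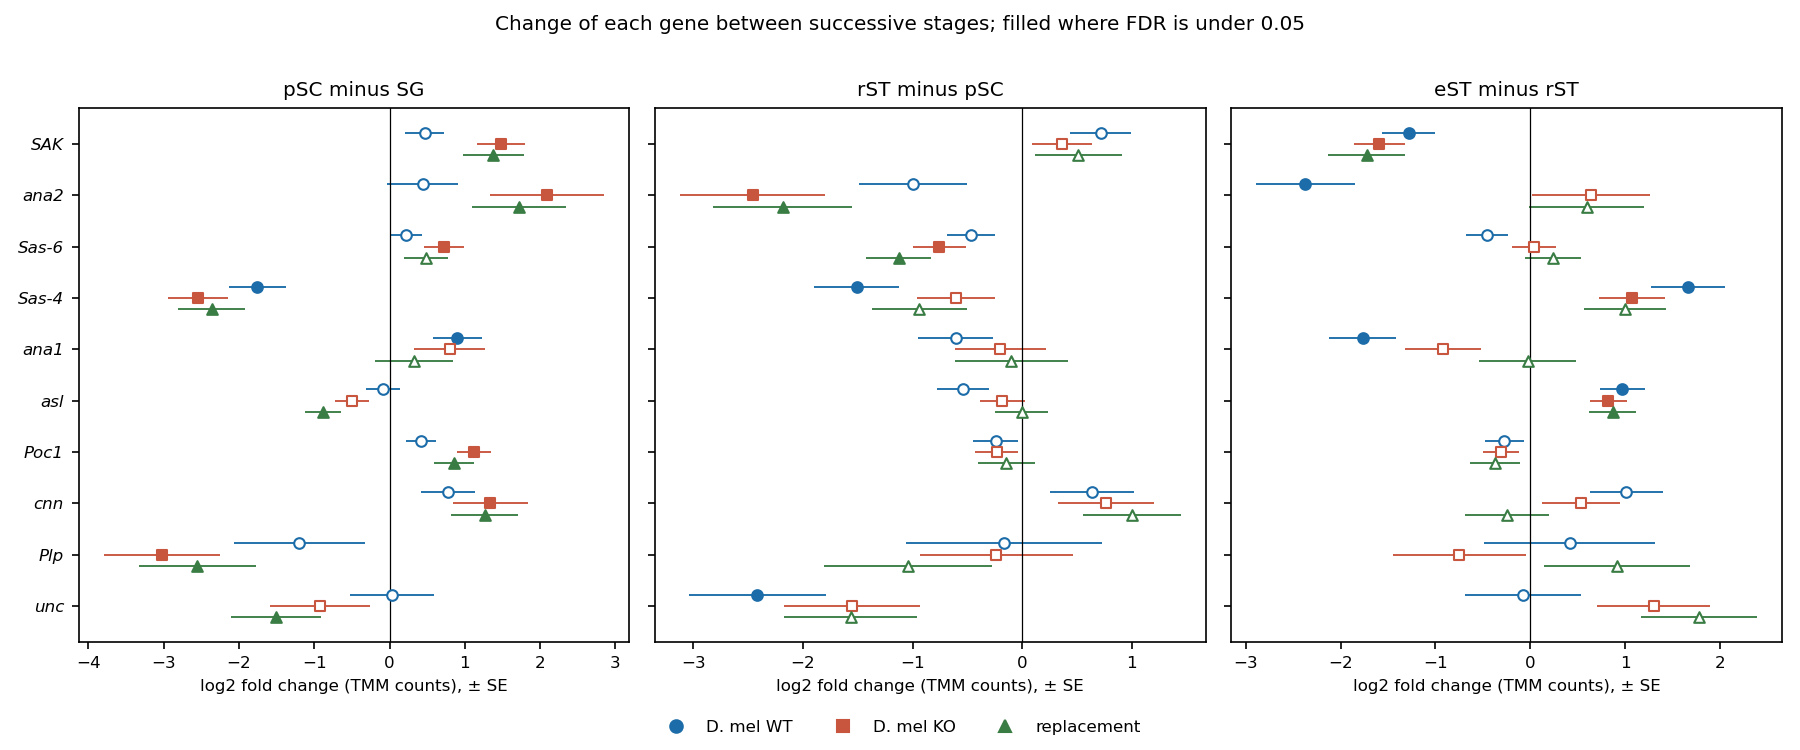
Log2 fold change of TMM-scaled counts with its standard error (horizontal axis) for the 10 genes (vertical axis) at the 3 stage steps in each line, with filled points at an FDR under 0.05. SAK falls from rST to eST in all 3 lines and Sas-4 falls from SG to pSC in all 3. The falls of ana2 are filled from rST to eST in D. mel WT and from pSC to rST in the other lines. The test of a difference between lines passed for ana2 only from rST to eST against D. mel KO, and was lost without any of 8 of 22 cysts.

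Counted together, 2 of the 10 genes passed from SG to pSC in D. mel WT, where 25.9% of all genes did. From pSC to rST 2 passed (23.3% of all genes) and from rST to eST 5 (27% of all genes). On the FPKM scale 7 of the 10 passed from pSC to rST in D. mel WT, with 33.8% of all genes for log2(FPKM + 1) and 32.1% for log2(FPKM + 0.1). The counts in D. mel KO were 7 (background 48.4%), 2 (14.5%) and 3 (22.4%), and in the replacement line 8 (41.8%), 2 (19.7%) and 2 (15.5%). The median log2 fold change of the 10 from SG to pSC was 0.32 in D. mel WT, 0.76 in D. mel KO and 0.40 in the replacement line, beside 0.18, 0.15 and 0.15 for all genes tested. Spermatid marker sums in the SG cysts were 611 to 1200 FPKM in D. mel WT, 86.3 to 1040 in D. mel KO and 21 to 757 in the replacement line, and their part in the SG to pSC counts was not tested. Whether a stage change differed between lines was tested for each pair of lines. By edgeR, 1 of the 10 passed, ana2 for wild type minus knockout from rST to eST, where 3.31% of all genes did. None passed for that pair from SG to pSC (0.505%) or pSC to rST (0%), for replacement minus knockout (0.19%, 0% and 0.00732% in order of stage) or for wild type minus replacement (1.13%, 0% and 1.77%). At an unadjusted p under 0.05 these 8 contrasts held 2, 0, 0, 0, 0, 2, 1 and 4 of the 10 in that order, beside 10%, 3.34%, 6.43%, 2.34%, 3.95%, 15.7%, 9.15% and 15.3% of all genes. DESeq2 called 1 in the last and 0 in the others, beside 1.06%, 0.0146%, 0.468%, 0.00732%, 0.0439%, 2.77%, 0.0293% and 3.2% of all genes.

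The lines were compared within each stage as C (wild type minus knockout), B (replacement minus knockout) and C-B (wild type minus replacement), and each pair of these comparisons shares the samples of 1 line. None of the 10 passed by edgeR in SG (backgrounds 0.129%, 0.364% and 1.92% for C, B and C-B) or pSC (1.8%, 1.74% and 4.1%). The nearest in SG was SAK in C-B (0.79 ± 0.267, FDR 0.147), and in pSC asl in C (0.69 ± 0.216, FDR 0.104). At an unadjusted p under 0.05 there were 1, 1 and 2 of the 10 in SG (8.36%, 8.45% and 16.8% of all genes) and 2, 0 and 0 in pSC (17.9%, 12% and 18.6%), and DESeq2 called 0, 0 and 1 in SG (2.68%, 2.46% and 8.63% of all genes) and 1, 0 and 0 in pSC (7.26%, 4.32% and 9.61%). The summed level of 10 accessory gland markers was 632 to 3180 FPKM in the SG cysts of D. mel WT, 17.2 to 466 in D. mel KO and 53 to 189 in the replacement line. In rST, the wild type had less Poc1 than the knockout (-0.29 ± 0.0826, FDR 0.0378) and the replacement line (-0.34 ± 0.086, FDR 0.0116), where 9.13% and 21.4% of all genes passed, and none passed by edgeR in B (7.28%), with 1 of the 10 at an unadjusted p under 0.05 (19.8% of all genes) and 1 by DESeq2 (9.66%). Poc1 had 2251, 2360, 2575, 2847 and 2571 normalized counts in the WT rST cysts and 2962, 3117, 3139, 3320 and 3418 in the replacement cysts, without overlap. Its FPKM did overlap, at 75.9, 62.4, 64, 72 and 68.9 against 68.9, 62.9, 73.3, 73.6 and 69.2, and gave a difference of -0.02 in both comparisons (FDR up to 0.858 and 0.849). The C call was also lost without any 1 of 10 of the 11 cysts, all but WT rST replicate 4 (FDR up to 0.113).

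In elongating spermatids, ana2 was the 1 gene of the 10 that passed between lines, with less of it in the wild type than in either edited line (3.24% of all genes passed in C, 1.61% in B and 5.12% in C-B). The WT eST cysts had 1.12, 1.88, 2.85, 3.76 and 2.6 FPKM. The replacement cysts had 17.4, 5.96, 12.8, 4.24 and 22.9, all above the highest WT cyst, a separation that 5.69% of all genes showed. D. mel KO ranged from 1.67 to 43.6 FPKM (median 15.5, n = 6), and 1 KO cyst lay within the WT range. The log2 fold change was -2.26 ± 0.511 in C (FDR 0.0207), -2.17 ± 0.522 in C-B (FDR 0.0197) and -0.09 ± 0.477 in B (FDR 0.956), where 0 of the 10 had an unadjusted p under 0.05 (14% of all genes) and 0 were called by DESeq2 (3.74%). C was lost without KO eST replicate 1 (FDR 0.0502) or WT eST replicate 2 (FDR 0.0563). C-B was lost without WT eST replicate 2 (FDR 0.0516) or replacement eST replicates 1 (FDR 0.0515) or 5 (FDR 0.0535). Both were also lost on the FPKM scale and with the replicate number added to the fit as a block (FDR up to 0.12 and 0.14).

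Spermatocyte markers moved with ana2 among these cysts. The summed level of tbrd-1, tbrd-2, sa, can and twe was 25.6, 38.2, 47.2, 58.9 and 63.1 FPKM in the WT eST cysts and 108, 60.9, 190, 37.9 and 212 in the replacement eST cysts. It was 125, 77.6, 503, 31.7, 208 and 121 FPKM in the KO eST cysts, in the order in which ana2 was at 21.1, 6.68, 43.6, 1.67, 22 and 9.85. The KO cyst lowest in the markers was also the lowest in ana2, and the highest was the highest. None of the 5 markers was at 0 in any eST cyst, and 2 of 5 passed in C (tbrd-1 at -2.35 ± 0.612, FDR 0.0413, and tbrd-2 at -2.34 ± 0.634, FDR 0.047) and 1 of 5 in C-B. In rST the WT cyst with the highest ana2 (52.7 FPKM) likewise had the highest marker sum (408 FPKM). The part of these markers in the ana2 result was not tested.

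**Figure D3:**
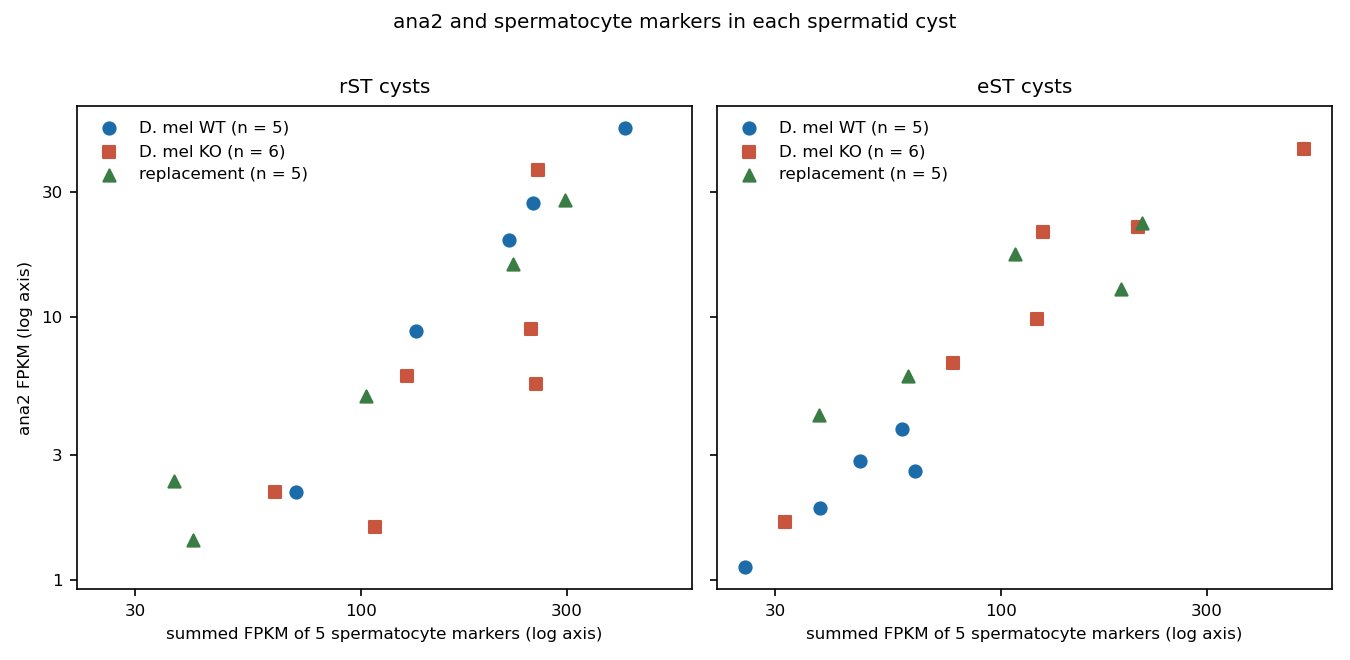
FPKM of ana2 (vertical axis, log) against the summed FPKM of 5 spermatocyte markers (horizontal axis, log) in rST and eST cysts, with a point for each cyst and a colour for each line. In eST the 5 WT cysts lie at the lower left, at 1.12 to 3.76 FPKM of ana2 and 25.6 to 63.1 FPKM of the markers.

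In whole testes, where the spread between libraries was small (biological coefficient of variation 9.07%, against 59.8% in eST cysts), 3 of the 10 were higher in the replacement line than in D. mel KO (B, where 21.8% of all genes passed and 10% in this direction) and 3 were higher there than in the wild type (C-B, 29.2% and 14%). Of 5 spermatid markers, 4 rose in B (median 0.19, beside 0.17 for the 10 genes) and 2 were lower in C-B (median -0.14, beside -0.10), with summed levels of 1090, 1060 and 1050 FPKM in the replacement line, 944, 1000 and 958 in D. mel KO and 1070, 1040 and 1020 in D. mel WT. Their part in these results was not tested. The summed level of 10 accessory gland markers was 381 FPKM in KO testis replicate 2, against 18.5 and 16 in KO replicates 1 and 3. It was 12.8 to 16.7 FPKM in D. mel WT and 17.1 to 20.4 in the replacement line. No call of the 10 genes in B was lost without KO replicate 2. None of the 10 genes passed by edgeR in C (17.1%), with 2 of the 10 at an unadjusted p under 0.05 (28.9% of all genes) and 0 by DESeq2 (15.7%). For ana1 the normalized counts were 3528, 4294 and 3874 in D. mel WT, 4416, 4208 and 4168 in D. mel KO and 4646, 5416 and 5556 in the replacement line. The log2 fold change was 0.29 ± 0.0743 in B (FDR 0.013) and -0.42 ± 0.0744 in C-B (FDR 0.000781). All 3 replacement libraries were above all others, although in FPKM the lowest of them (37.8) lay below the highest KO (38.6) and WT (38.4) libraries. B was lost without replacement replicate 2 or 3 (FDR up to 0.0566) and on the FPKM scale.

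cnn had 11268, 11710 and 11361 normalized counts in the testes of D. mel WT, 11699, 11337 and 11028 in D. mel KO and 12514, 12837 and 13421 in the replacement line, which stood above both. The differences were 0.19 ± 0.0427 in B (FDR 0.00631) and -0.18 ± 0.0427 in C-B (FDR 0.00694). On the FPKM scale they were as small as 0.06 and -0.02 and did not pass (FDR up to 0.257 and 0.766). asl passed in B (0.26 ± 0.0715, FDR 0.0201), from 2016, 1923 and 1897 normalized counts in D. mel KO to 2027, 2438 and 2501. This call was lost without KO replicate 3 or replacement replicates 2 or 3 (FDR up to 0.0874) and on the FPKM scale. ana2 passed in C-B (-0.29 ± 0.0843, FDR 0.02), at 577.7, 574.8 and 480.8 normalized counts in D. mel WT and 701.3, 677.4 and 618.1 in the replacement line, and was lost without WT replicate 3 or replacement replicates 1 or 2 (FDR up to 0.0872) and on the FPKM scale. These testis differences were all under 2-fold.

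**Figure D4:**
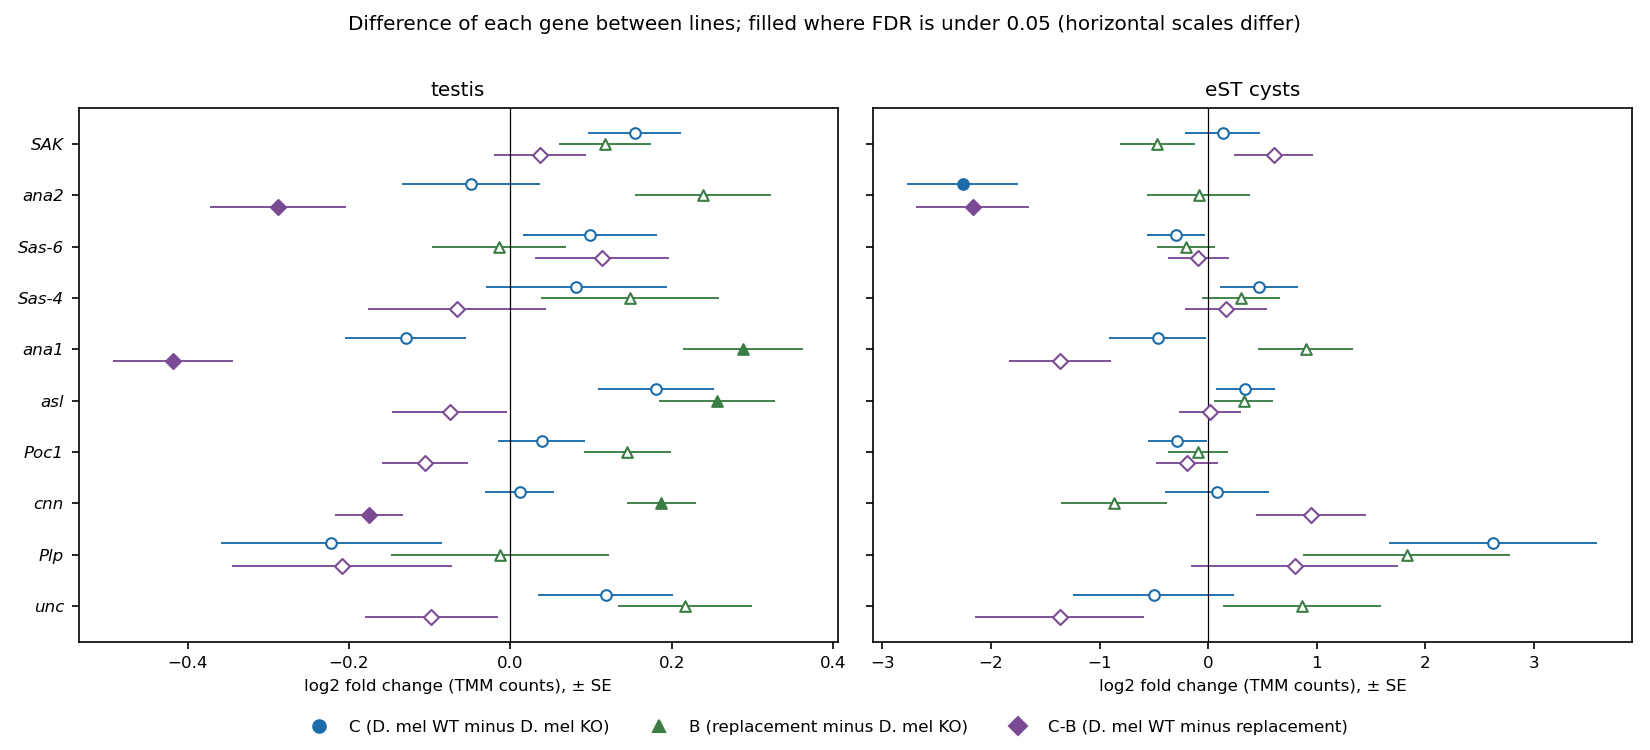
Log2 fold change of TMM-scaled counts with its standard error (horizontal axis, scales differ between panels) for the 10 genes (vertical axis) in comparisons C, B and C-B, in testes and eST cysts, with filled points at an FDR under 0.05. In eST cysts ana2 is filled in C and C-B, and in testes ana1 and cnn are filled in B and C-B.

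Other genes of the centrosome and the ciliary base were read from 3 lists. Of the list for centriole assembly and length, 10 of 11 genes were found and tested. From SG to pSC in D. mel WT 2 of the 10 fell, gorab (-3.51 ± 0.606, FDR 0.000178) and Rcd4 (-1.50 ± 0.537, FDR 0.0423), and none rose. From rST to eST 2 rose, Cp110 (2.01 ± 0.29, FDR 0.000196), which caps the centriole end, and slmb (1.64 ± 0.27, FDR 0.000405), the ubiquitin ligase subunit that limits SAK protein, and ana3 fell (-1.88 ± 0.347, FDR 0.000792). The same step in the replacement line had 2 of 10 up and none down, and in D. mel KO 3 up and 2 down. Of all genes, 25.9% passed from SG to pSC in D. mel WT, and from rST to eST 27% passed there, 15.5% in the replacement line and 22.4% in D. mel KO.

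Of 16 genes of the pericentriolar material and the gamma-tubulin complexes, 2 rose and 7 fell from pSC to rST in D. mel WT. Mzt1 (1.21 ± 0.307, FDR 0.0104) and t-Grip84 (1.08 ± 0.347, FDR 0.0292) rose, and Grip128 (-1.54 ± 0.299, FDR 0.00331) and Grip71 (-1.49 ± 0.469, FDR 0.0269) had the largest falls. The counts at this step were 0 up and 3 down in D. mel KO and 0 up and 5 down in the replacement line. Of 15 genes of the transition zone and the head-to-tail attachment 12 were found and 10 tested. At the same step 1 rose and 6 fell in D. mel WT, 0 and 6 in D. mel KO and 0 and 5 in the replacement line. Among them were Cc2d2a (-2.22 ± 0.408, FDR 0.00311 in D. mel WT) and spag4 (-1.86 ± 0.549, FDR 0.0198), whose product joins the basal body to the spermatid nucleus. Medians in D. mel WT were -0.94 for the pericentriolar list and -0.96 for the transition zone list, beside -0.18 for all genes tested. Of all genes, 23.3% passed at this step in D. mel WT, 14.5% in D. mel KO and 19.7% in the replacement line.

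Between lines, the transition zone gene Mks1 differed most among the named genes of these lists. It had 384.2, 454.2 and 461.6 normalized counts in the testes of D. mel WT, 394.8, 351.4 and 354.3 in D. mel KO and 67.4, 65.36 and 76.16 in the replacement line. The replacement libraries were far below the others, with -2.39 ± 0.109 in B (FDR 2.36e-09) and 2.63 ± 0.108 in C-B (FDR 6.05e-10). In rST the wild type also had more of it than the replacement cysts (4.67 ± 0.65, FDR 0.000121). alms1b was higher in replacement testes than in those of D. mel KO (1.02 ± 0.0679, FDR 1.18e-07), although reads of alms1a and alms1b, near-identical neighbours, are hard to assign. Mks1 and alms1b lie on X, and the paper describes miR-983 as X-linked. Each genotype was 1 line, and the part of the edited X in these differences was not tested. In eST cysts the wild type had less spag4 than the knockout (-2.83 ± 0.689, FDR 0.0289) and the replacement line (-2.41 ± 0.694, FDR 0.049), the direction also seen for ana2. Spermatocyte marker sums in these cysts were 25.6 to 63.1 FPKM in D. mel WT, 31.7 to 503 in D. mel KO and 37.9 to 212 in the replacement line. The part of these markers in the spag4 result was not tested.

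The genes whose mean levels followed each of the 10 most closely over the 12 cyst groups were found by Pearson's r of log2(mean FPKM + 1) among 10519 genes. They were Su(H) for Sas-6 (r = 0.994), zf30C for Sas-4 (0.996), Wee1 for ana1 (0.964), CG15395 for ana2 (0.994), Idh for SAK (0.989), Rpn2 for asl (0.99), yata for unc (0.993), rush for Poc1 (0.987), spir for cnn (0.994) and CG7692 for Plp (0.99). The groups share their libraries across genes and the best of many genes was taken, so these values are a description. Among the 10 themselves the closest pairs were asl and unc (0.949), Sas-4 and Plp (0.947) and Sas-6 and ana2 (0.921).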

How the data were processed

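RNA-seq libraries of testes and single cysts of 3 D. mel lines were used (71 libraries). Per the study's methods and processing notes, the authors trimmed reads with Trimmomatic 0.36, mapped them with HISAT2 2.2.0 to the FlyBase genome and counted them per gene with HTSeq 0.6.0 without regard to strand, and they deposited these read counts without normalization. The authors also deposited FPKM values per gene and library, computed with StringTie 2.1.4.

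The two-sided quasi-likelihood test of edgeR 4.0.16 was run in R 4.3.3, with limma 3.58.1 for log values, on TMM-scaled counts with Benjamini-Hochberg adjustment over all genes tested. Genes above 5 normalized counts on average in at least 1 group were kept. There was 1 fit per line over the 4 stages, 1 per stage (and testis) over the 3 lines, and 1 over the 62 cysts for the differences between changes. FPKM levels were used as deposited and no library was left out. Alternatives were DESeq2 1.42.0, its size factors in edgeR, no filter or a filter of 50, limma on log2(FPKM + 1) and log2(FPKM + 0.1), other fits, and each library left out. The scripts were tested on simulated data.

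The 10 genes and the gene lists were chosen with earlier results of these data known. All 10 were named. Other genes of the lists were named if they passed in a comparison in which a member passed, at most 2 in each direction per list in the D. mel WT stage changes and 1 between lines, with the most similar gene outside the lists for each member. Not every gene that the rule allows is printed.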

Additional observations from a re-analysis of the deposited data

Results flagged for a closer look

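In 8 of 120 groups of 4 to 6 libraries, 1 library stood apart from the rest in FPKM by Dixon's test, which flags about 1 in 20 groups by chance. In D. mel KO eST, replicate 3 was flagged as the highest for asl (19.2 FPKM, next 11.7), unc (2.19, next 0.537) and Plp (0.111, next 0.0294). This cyst was also the highest of its group for Sas-6 (20.4 FPKM), Sas-4 (2.04), ana1 (8.12), ana2 (43.6), SAK (35.2) and Poc1 (98.5). It was the lowest for cnn (202 FPKM). Its spermatocyte (503 FPKM) and somatic cyst cell (20.3 FPKM) marker sums were the highest of the group. Every KO eST mean includes this cyst. The other 5 flagged values were ana2 in D. mel KO rST replicate 5 (36.3 FPKM, next 9.05), asl in D. mel KO SG replicate 4 (27.3, next 16.8), ana1 in replacement SG replicate 4 (13.2, next 6.94), Poc1 in D. mel WT eST replicate 3 (60.2, next 33.1) and Plp in D. mel WT rST replicate 5 (0.56, next 0.121).

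The change of ana2 from rST to eST, wild type minus knockout, differed by -3.20 on the log2 scale (edgeR FDR 0.0296). That difference was tested in the fit over the 62 cysts.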

How the results depend on the processing

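No log2 fold change that passed reversed its direction, in 351 values under alternatives and 433 with 1 library left out, and 64 and 85 of these no longer passed. DESeq2 and the filter of 50 lost no call, while log2(FPKM + 0.1) and log2(FPKM + 1) lost 21 and 20 of 44. The counts of the 10 genes passing that moved by more than 1.5 times were as follows, with the reported count after "from". Smaller moves are not listed. On either FPKM scale they were 1 from 3 (D. mel KO, eST - rST), 1 from 2 (D. mel WT, pSC - SG), 7 from 2 (D. mel WT, rST - pSC), 1 from 2 (replacement, eST - rST), 5 from 8 (replacement, pSC - SG), 0 from 1 (eST C, eST C-B and the change of C from rST to eST), 0 from 3 (testis B) and 1 from 3 (testis C-B). By DESeq2 they were 1 from 0 (SG C-B, pSC C, rST B and the change of C-B from rST to eST), 2 from 1 (eST C, eST C-B and rST C-B) and 5 from 3 (testis B). DESeq2 size factors in edgeR gave 1 from 2 (D. mel KO and replacement, rST - pSC, and replacement, eST - rST) and 0 from 1 (the change of C). An added minimum absolute log2 fold change of 1 gave 1 from 2 (D. mel KO, rST - pSC, D. mel WT, pSC - SG, and replacement, eST - rST), 0 from 1 (rST C and C-B) and 0 from 3 (testis B and C-B). The filter of 50 gave 2 from 1 (rST C-B), and a fit of the 2 groups alone gave 1 from 0 (rST B) and 0 from 1 (rST C and C-B). Without a filter there were 1 from 2 (D. mel KO, rST - pSC, and D. mel WT, pSC - SG) and 0 from 1 (rST C), and 1 fit over the 62 cysts gave 1 from 2 (D. mel WT, pSC - SG). An unadjusted p gave 2 from 0 (SG C-B), 2 from 1 (eST C-B) and 3 from 1 (rST C-B). The causes were not tested.

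With the replicate number as a block, 9 of 44 calls were lost. The counts were 1 from 2 (D. mel KO, rST - pSC, and D. mel WT, pSC - SG) and 0 from 1 (eST C, eST C-B and rST C). Same-numbered libraries deviated together (r above 0.1) in 3 of 9 pairs in testes and 8 of 15 in eST. In eST the median r was 0.179 for same-numbered pairs and -0.0292 for pairs with different numbers. The medians were 0.106 and -0.0255 in SG, and -0.00361 and -0.0108 in pSC. The labels do not say whether the numbers mark shared samples, so the main fits had no block.

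With 1 library left out, counts ranged over 2 to 4 (D. mel KO, eST - rST), 4 to 7 (D. mel KO, pSC - SG), 1 to 2 (D. mel KO, rST - pSC), 5 to 6 (D. mel WT, eST - rST), 1 to 2 (D. mel WT, pSC - SG), 2 to 4 (D. mel WT, rST - pSC), 1 to 3 (replacement, eST - rST), 5 to 8 (replacement, pSC - SG), 2 to 4 (replacement, rST - pSC), 0 to 1 (eST C, eST C-B, rST C, testis C, and the changes of C and C-B from rST to eST), 1 to 2 (rST C-B), 1 to 5 (testis B) and 2 to 4 (testis C-B). Over all genes, calls moved by more than 1.5 times in 65 of 255 counts, for example 1174 by 1 fit over the 62 cysts against 3084 (D. mel WT, rST - pSC), 1044 by DESeq2 against 403 (eST C), and 1848 on log2(FPKM + 0.1) against 2905 (D. mel KO, eST - rST). Low read counts of Plp, unc and Sas-4 limit what can be said of them in spermatids, and of Plp also in pSC cysts.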
